A study of Caenorhabditis elegans with 6 samples.

Results

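The genes described here are 30 *Caenorhabditis elegans* genes of the vacuolar proton pump and the lysosome membrane, taken by name from the 46904 genes of the deposited table. They comprise 21 genes of the vacuolar-type proton ATPase (V-ATPase) and 9 genes for other proteins of the lysosome or of lysosome-related organelles. Of the V-ATPase genes, 9 encode subunits of the cytosolic V1 sector and 12 encode subunits of the membrane sector V0 or accessory proteins. Each of the 30 names occurred once in the table, and all 30 passed the filter on low values (1 TPM or more in at least 3 of the 6 libraries), as did 11099 genes in all. *ncr-2* passed it through the antimycin A libraries, since it reached 1 TPM in only 1 EtOH library.

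The V-ATPase is a rotary pump. Its V1 sector hydrolyses ATP in the cytosol, and the energy turns a ring of proteolipid subunits in the V0 sector, which moves protons into the lumen of lysosomes, endosomes and synaptic vesicles. Lysosomal hydrolases need the acid lumen, and in neurons the same pump energises the loading of vesicles with transmitter. In *C. elegans* several V0 subunits are encoded by more than 1 gene, and the subunit a genes are used in different tissues.

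The libraries hold RNA bound to tagged ribosomes of young adult animals of strain CLP1481, grown at 20 °C. All animals carried the transgene array twnEx675, in which the *tbh-1* promoter drives RPL-22 with an HA tag and the *gcy-8* promoter drives GFP. Ribosomes were collected with an antibody to HA. There were 3 libraries from animals kept for 6 h with ethanol (EtOH, the vehicle) and 3 from animals kept for 6 h with 4.5 µM antimycin A, which blocks respiratory complex III. The series title concerns synaptic autophagy and aversive learning. The 3 experiments were independent, and the 2 libraries of an experiment carry the same number. The labels name the cells as neurons that express *tbh-1*, the gene for the octopamine-making tyramine beta-hydroxylase, which is also known to be active in the gonadal sheath. *tbh-1* itself was abundant, at 1666 TPM ± 66.8 with EtOH and 2098 TPM ± 616 after antimycin A (SD, n = 3 each).

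TPM give each gene's share of a library, scaled for length, so levels can be compared between genes but the sequencing depth is unknown. Between 9951 and 11608 genes reached 1 TPM in a library. RNA of other tissues was present in the pull-down. The summed level of 8 intestine markers was 7318 to 7715 TPM with EtOH, against 1828 to 3802 TPM with antimycin A, and 6 of the 8 fell while 1, *ges-1*, rose. Most of this sum was *vit-2* (means of 3521 TPM with EtOH and 948 TPM with antimycin A) and *vit-6* (2159 and 979 TPM). The summed level of 8 pan-neuronal markers was 208 to 426 TPM with EtOH, against 434 to 734 TPM with antimycin A. Most of that sum was *snb-1* (means of 166 and 344 TPM) and *sbt-1* (91.8 and 206 TPM). Of the 7 tested pan-neuronal markers 1 rose and 0 fell, where 14.2% of all tested genes rose and 6.47% fell. Of these 7, 3 were higher once the replicate number was also a term (the block), beside 29.6% of all tested genes. Gonadal sheath markers summed to 2794 to 4358 TPM with EtOH and 4890.1 to 6545 TPM after antimycin A, with 0 of 4 called and 2 higher with the block. Most of the sheath sum was *inx-8* (means of 3201 and 4622 TPM). All 3 coelomocyte markers were below the filter. In RNA pooled from many cells, fewer cells of a type and less RNA per cell cannot be told apart. The part of these shifts in the results below was not tested.

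Of the 21 V-ATPase genes 17 had a negative fold change after antimycin A, beside 34.8% of all tested genes. Of the 9 other lysosome membrane genes 6 had a positive one, near the 65.2% of all tested genes. The summed TPM of the V-ATPase genes was 4777, 3385 and 2983 with EtOH (replicates 1, 2 and 3), against 3273, 2756 and 1855 with antimycin A. It was lower in antimycin A in every pair, although the ranges of the groups overlapped. The other lysosome membrane genes summed to 276, 217 and 201 TPM with EtOH, against 398, 460.2 and 269.8 TPM with antimycin A, higher in every pair, again with overlapping ranges. Across the libraries *lmp-1* alone made up 48.7% to 58.6% of this sum and *scav-3* 14.1% to 32.4%. The median log2 fold change (antimycin A over EtOH, on the log2(TPM + 1) scale) was -0.63 over the 21 V-ATPase genes and 0.69 over the 9 others, beside 0.21 over all tested genes. After median-of-ratios scaling, which brings the median of all tested genes to -0.03, these medians were -0.92 and 0.40.

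Few of these differences passed with treatment as the only term. Of the 21 V-ATPase genes 1 fell, *vha-20*, and 0 rose at an adjusted p below 0.05 (limma, Benjamini-Hochberg over all tested genes), where 6.47% of all tested genes fell and 14.2% rose. That share of falling V-ATPase genes is near the background. At an unadjusted p under 0.05, 8 of the 21 passed, as did 3407 of all 11099 tested genes. Of the 9 other genes 2 that reached 1 TPM in every library rose, *scav-3* and *ncr-1*, and 1 fell, *lmp-2*. *ncr-2* also passed as higher, the third such call, but it entered the test through the antimycin A libraries. That entry favours a call as higher, so *ncr-2* is not counted with the other 2.

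The same-numbered libraries share much of their spread, and a fit that also took the replicate number as a block called more genes. With the block 12 V-ATPase genes were lower and 1, *unc-32*, was higher, beside 13% of all tested genes lower and 29.6% higher. Of the other lysosome membrane genes 6 were higher and 2 lower in that fit. The same 12 V-ATPase genes have a q-value below 0.05 and a negative log2 ratio in the authors' deposited table, where 11.7% of the 11099 genes tested here are lower and 12.2% higher by that rule. The same 12 were also lower when treatment was the only term and the libraries were scaled by median of ratios, beside 10.8% of all tested genes lower and 12.6% higher. Among all 21, 13 were lower in each of the 3 pairs, against 20.1% of all tested genes, and 1 was higher in each, against 43.2%. For 5 of the 21 all 3 antimycin A libraries lay below all 3 EtOH libraries, against 11.6% of all tested genes, and for 0 they lay above, against 23.1%. All of these counts come from the same 6 libraries and are not independent of each other.

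**Figure D1:**
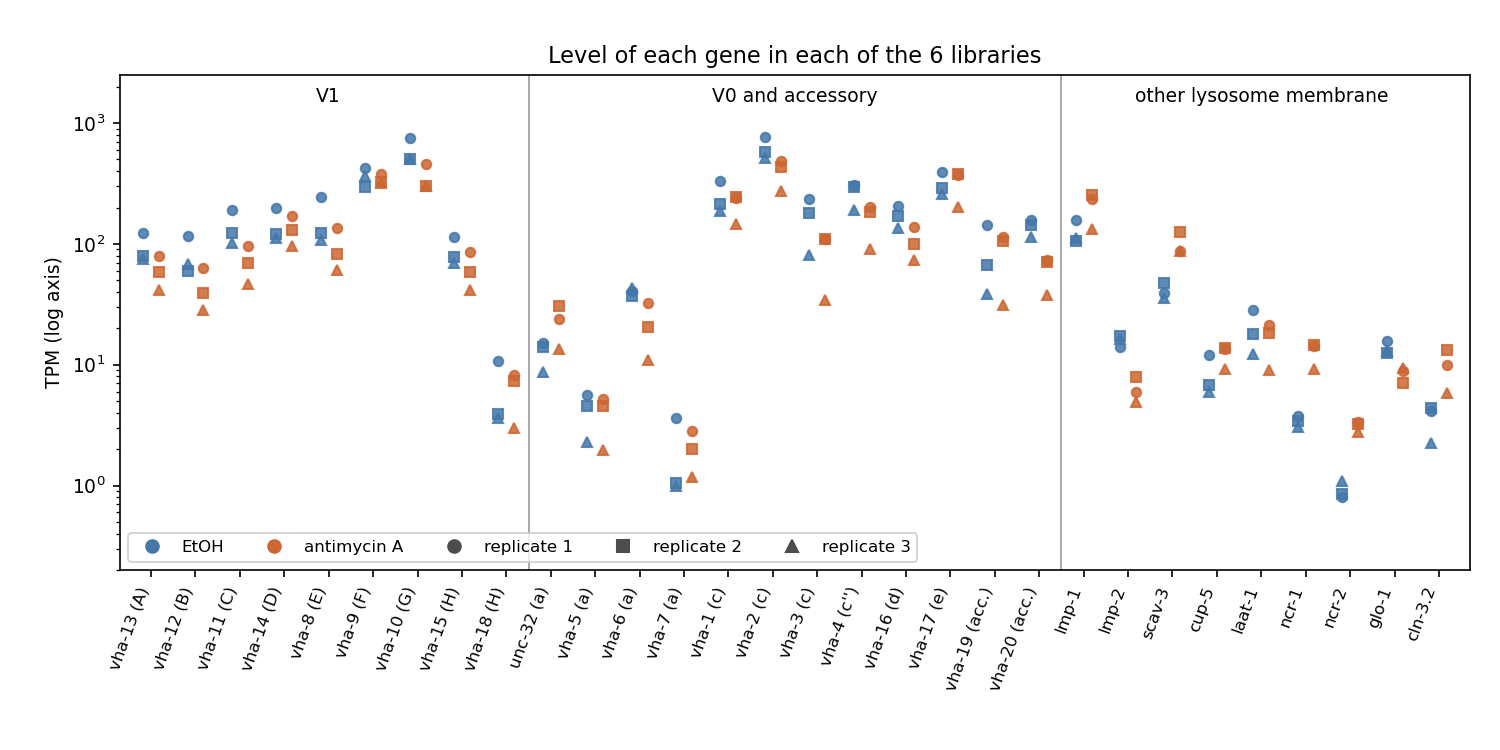
Level of each of the 30 genes in TPM (log axis) in the 3 EtOH libraries (blue) and the 3 antimycin A libraries (orange), with the replicate number as the marker shape and subunit letters in brackets (acc., accessory). The V-ATPase genes span 1.89 TPM (*vha-7*) to 618 TPM (*vha-2*) as EtOH means. The antimycin A libraries of *scav-3*, *ncr-1*, *ncr-2* and *cln-3.2* lie above those of EtOH, as for 23.1% of all tested genes. For 7 of the 30 genes they lie below, against 11.6% of all tested genes.

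The V1 genes had EtOH means from 6.09 TPM (*vha-18*) to 586 TPM (*vha-10*). Fold changes are given as log2 values with their SE, followed by the adjusted p and, where the block changes the call, the blocked adjusted p. None of the V1 genes passed with treatment as the only term, 3 had an unadjusted p under 0.05, and with the block 6 of 9 were lower. The core of V1 is a ring of the catalytic subunit A, encoded by *vha-13*, and subunit B, encoded by *vha-12*. *vha-13* read 124, 78.7 and 75.0 TPM with EtOH, against 78.9, 58.6 and 41.6 TPM with antimycin A (fold change -0.63 ± 0.29, adjusted p = 0.177, blocked 0.00143). *vha-12* read 116, 59.4 and 67.7 TPM with EtOH, against 63.4, 39.1 and 28.6 TPM with antimycin A (-0.89 ± 0.34, adjusted p = 0.101, blocked 4.6e-05). For both genes the groups overlapped, and replicate 1 was the highest library of its group.

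Subunits C and H link V1 to V0 and subunits E and G form the outer stalks. *vha-11*, for subunit C (WBcel235 chromosome IV, 2307819 to 2314567), read 193, 124 and 102 TPM with EtOH, against 97.0, 69.5 and 46.8 TPM with antimycin A. Every antimycin A library of *vha-11* was below every EtOH library, and the test missed the threshold (-0.97 ± 0.32, adjusted p = 0.0549, blocked 4.36e-06). *vha-10*, for subunit G, read 751, 507 and 500.3 TPM with EtOH, against 457, 299 and 299.9 TPM with antimycin A, also without overlap. Its 3 pairs differed by -0.72, -0.76 and -0.74 on the log2(TPM + 1) scale (adjusted p = 0.0602, blocked 1.75e-04). *vha-8*, for subunit E, had means of 158 TPM ± 73.2 and 92.5 TPM ± 37.8, with overlap (adjusted p = 0.193, blocked 1.49e-04).

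Subunit H, a regulator of ATP hydrolysis, is encoded by *vha-15* and *vha-18*. *vha-15* made up 88.8% to 95.2% of their summed TPM in the 6 libraries. It read 87.0 TPM ± 23.1 with EtOH and 61.7 TPM ± 22.5 after antimycin A (adjusted p = 0.294, blocked 0.00766), and *vha-18* read 6.09 TPM ± 4.02 and 6.18 TPM ± 2.78 (adjusted p = 0.962). The rotor shaft of V1 is made of subunits D and F. *vha-14*, for D, had means of 143 TPM ± 46.9 and 133 TPM ± 37.1 (-0.10 ± 0.28, adjusted p = 0.883, blocked 0.626). *vha-9*, for F, had means of 362 TPM ± 64.7 and 340.5 TPM ± 30.8 (-0.08 ± 0.20, adjusted p = 0.874, blocked 0.724, or 0.06 after quantile normalization). Both shaft genes were higher in antimycin A in pair 2 and lower in pairs 1 and 3.

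**Figure D2:**
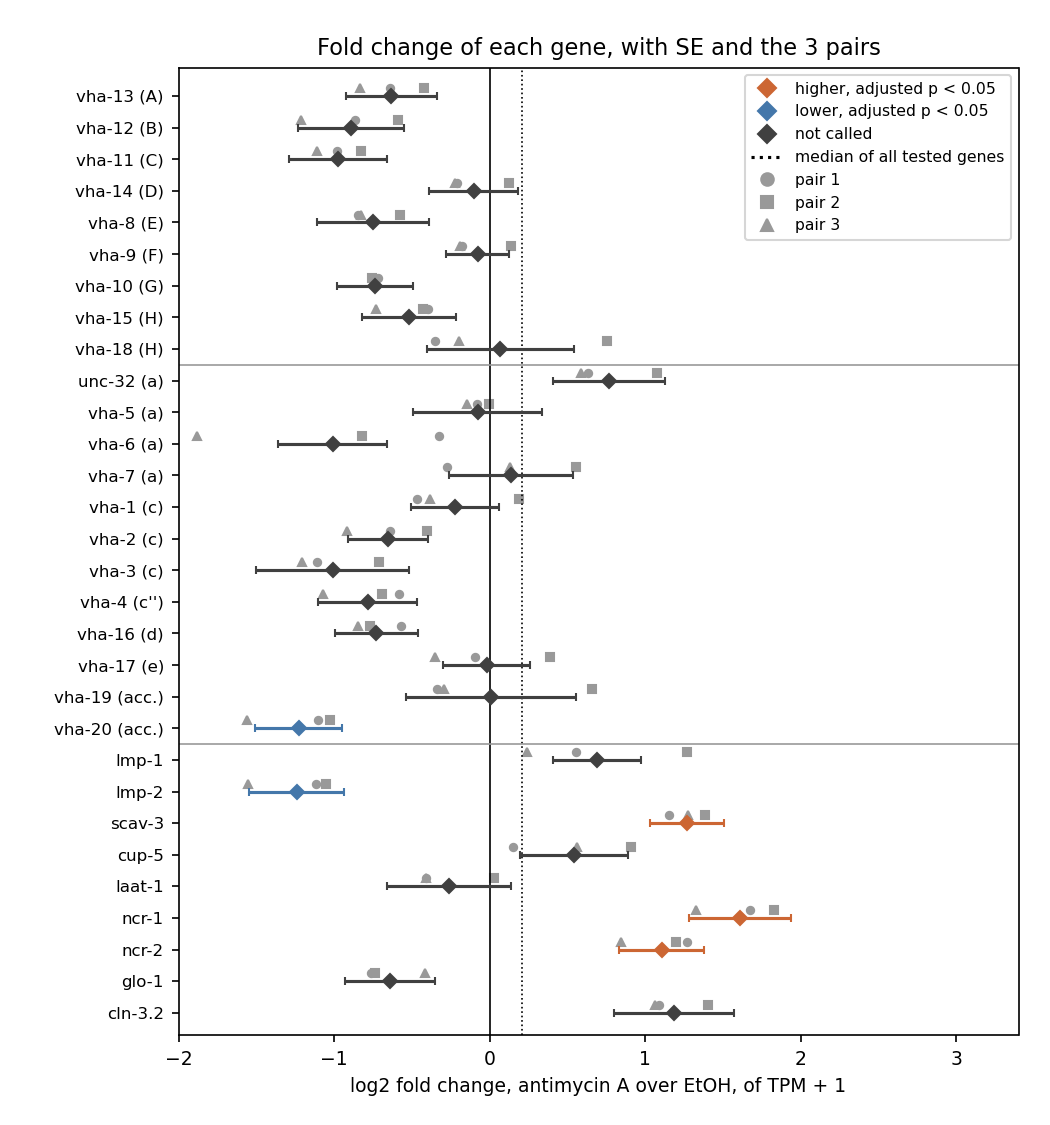
Log2 fold change of each of the 30 genes (diamonds, with SE) and of each same-numbered pair (grey markers), with the median of all tested genes at 0.21 as a dotted line. Coloured diamonds passed an adjusted p of 0.05, and the 3 pairs of *vha-10*, *scav-3* and *vha-11* lie close together while those of *vha-6* range from -1.88 to -0.33.

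In V0, subunit a forms the path of the protons across the membrane and is the subunit with the most alternative genes. *vha-6*, known for its role in the intestine (chromosome II, 11435212 to 11438464), read 41, 36.9 and 43.4 TPM with EtOH, against 32.5, 20.4 and 11.04 TPM with antimycin A. All antimycin A libraries were below all EtOH libraries, by amounts that differed between pairs, and the gene did not pass without the block (-1.01 ± 0.35, adjusted p = 0.0729, blocked 2.04e-04). *unc-32*, known for its role in neurons (chromosome III, 8905615 to 8911749), read 15.03, 14.1 and 8.69 TPM with EtOH, against 23.8, 30.9 and 13.6 TPM with antimycin A. It was higher in every pair with overlapping groups (0.77 ± 0.36, adjusted p = 0.18, blocked 0.00147). The authors' deposited table gives *unc-32* a log2 ratio of 0.85 and q = 0.317.

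The mix of subunit a genes follows from the opposite changes of *unc-32* and *vha-6* given above and is not a separate result. *unc-32* took 23.04%, 24.9% and 15.7% of the summed TPM of the 4 subunit a genes in EtOH and 37.0%, 53.3% and 48.9% in antimycin A. *vha-6* took 62.9%, 65.1% and 78.4% in EtOH and 50.5%, 35.3% and 39.8% in antimycin A. Neither share overlapped between the groups. The ratio of *unc-32* to *vha-6* was 0.316 ± 0.101 in EtOH and 1.16 ± 0.393 in antimycin A. An exact two-sided permutation test gave p = 0.1, the smallest that 3 against 3 unpaired libraries allow. That test left out the pairing of the libraries by replicate number. The summed intestine markers were lower and the summed neuronal markers higher in the same libraries, as given above. Single markers were mixed, since *ges-1* rose and only 1 of 7 neuronal markers was called. The part of these markers in the ratio was not tested.

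**Figure D3:**
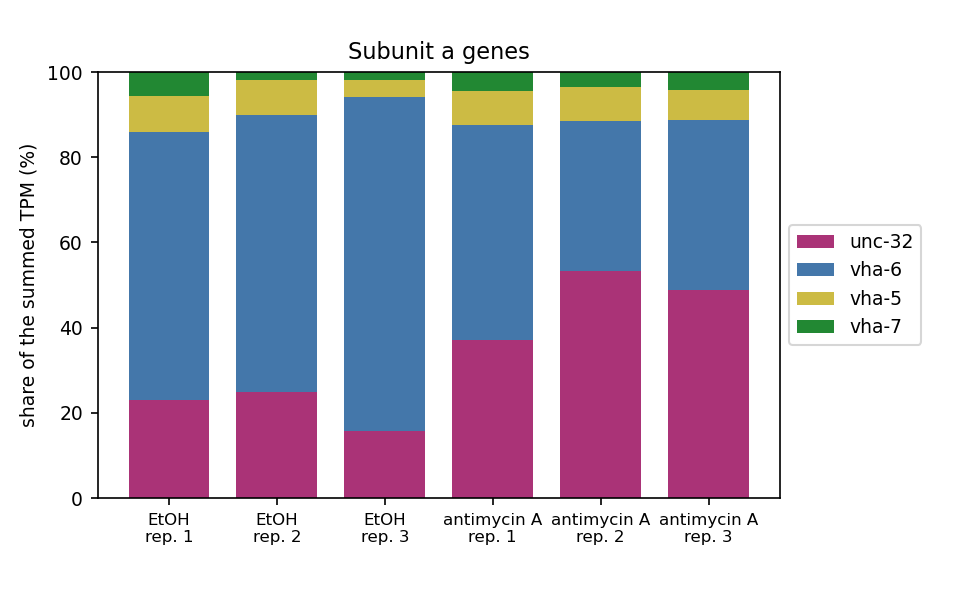
Share of the summed TPM of the 4 subunit a genes (%) taken by each gene in each library, as stacked bars. *unc-32* takes 15.7% to 24.9% in the EtOH libraries and 37.0% to 53.3% in the antimycin A libraries.

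The remaining subunit a genes were low. *vha-5*, which acts in the epidermis and excretory canal, read 4.15 TPM ± 1.70 and 3.93 TPM ± 1.74 (adjusted p = 0.951). Summed excretory canal markers read 22.8 to 35.3 TPM with EtOH and 26.9 to 35.2 TPM with antimycin A. Summed epidermis (hypodermis) markers, mostly *col-19*, read 322 to 379 TPM and 153 to 282 TPM. Of the 3 tested epidermis markers 1 was higher and 1 lower, and a link to *vha-5* was not tested. *vha-7* read 1.89 TPM ± 1.50 and 2.01 TPM ± 0.815 (0.14 ± 0.40, adjusted p = 0.890, or -0.03 under median-of-ratios scaling). For *vha-5* and *vha-7*, the spread between replicates was larger than the difference between groups.

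The proteolipid subunit c lines the rotating ring. *vha-1* and *vha-2* lie on the same strand of chromosome III with 106 bases between them (9781243 to 9782057 and 9782164 to 9783212), and *vha-11* and *vha-3* lie on the same strand of chromosome IV with 21 bases between them. *vha-2* read 761, 576 and 516 TPM with EtOH, against 488, 436 and 273 TPM with antimycin A, without overlap (-0.65 ± 0.26, adjusted p = 0.109, blocked 0.00103, or -0.27 after quantile normalization). *vha-1* read 334, 214 and 189 TPM with EtOH, against 242, 243 and 145 TPM with antimycin A, lower in pairs 1 and 3 and higher in pair 2 (-0.22 ± 0.28, adjusted p = 0.7, blocked 0.279). The ratio of the adjacent genes did not overlap between the groups. *vha-2* over *vha-1* was 2.28, 2.69 and 2.73 in EtOH and 2.02, 1.79 and 1.89 in antimycin A (exact two-sided permutation p = 0.1, again without the pairing and the smallest possible).

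*vha-3* read 236, 181 and 80.4 TPM with EtOH, against 109, 109.8 and 34.3 TPM with antimycin A (-1.01 ± 0.49, adjusted p = 0.202, blocked 3.29e-06). Its groups overlapped because replicate 3 was low in both. The ratio of *vha-3* to its neighbour *vha-11* was 1.16 ± 0.340 in EtOH and 1.15 ± 0.424 in antimycin A (exact two-sided permutation p = 0.9, without the pairing). The deposited description gives *vha-3* the same product as *vha-2*, and since how reads shared by close copies were assigned is not given in the sources used here, their separate values are uncertain. *vha-4*, for the related subunit c'', had means of 265 TPM ± 62.9 and 159 TPM ± 60.0 (-0.78 ± 0.32, adjusted p = 0.122, blocked 9.97e-05).

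Subunit d caps the ring and subunit e is a small membrane subunit. *vha-16*, for d, had means of 170.1 TPM ± 35.3 and 104.1 TPM ± 32.03 (-0.73 ± 0.27, adjusted p = 0.0851, blocked 2.01e-04). *vha-17*, for e, had means of 314 TPM ± 71.5 and 317 TPM ± 100.2 (-0.02 ± 0.28, adjusted p = 0.983, blocked 0.943, or 0.05 after quantile normalization). The 2 genes thus had similar spread and different fold changes, a difference that was not tested.

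The gene with the most negative fold change of the V-ATPase was *vha-20*, grouped here with the accessory genes (WBGene00010993, chromosome X, 14163099 to 14164506). It read 159, 144 and 114 TPM with EtOH, against 73.6, 70.2 and 38.0 TPM with antimycin A. All antimycin A libraries lay below all EtOH libraries, and the gene fell by 1.23 ± 0.28 on the log2(TPM + 1) scale (adjusted p = 0.0115). Without EtOH replicate 2 its adjusted p was 0.0524. The other accessory gene, *vha-19*, related to mammalian Ac45, read 143, 66.7 and 38.5 TPM with EtOH, against 113, 106 and 31.2 TPM with antimycin A. Its SE was the largest of the 21 V-ATPase genes, with a fold change of 0.01 ± 0.55 (adjusted p = 0.996, or -0.28 under median-of-ratios scaling).

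Among the other lysosome membrane genes, a cholesterol exporter gene and a scavenger receptor homologue rose. *ncr-1*, a homologue of the human lysosomal cholesterol transporter NPC1 (WBGene00003561, chromosome X, 4472244 to 4488851), read 3.80, 3.43 and 3.06 TPM with EtOH, against 14.3, 14.7 and 9.19 TPM with antimycin A. The lowest antimycin A library was above the highest EtOH library, and the gene rose by 1.61 ± 0.33 (adjusted p = 0.006). Its paralogue *ncr-2* (WBGene00003562, chromosome III, 8258345 to 8265805) read 0.811, 0.844 and 1.09 TPM with EtOH, against 3.37, 3.23 and 2.76 TPM with antimycin A, a direction that its way through the filter favours (1.11 ± 0.28, adjusted p = 0.0171). The ratio of *ncr-1* to *ncr-2* was 3.85 ± 0.957 in EtOH and 4.04 ± 0.639 in antimycin A, less than 1 SD apart. *ncr-2* shares 1310 bases with *col-91*, named after its values were seen, on the opposite strand (1.10 and 1.23 TPM as means). The call of *ncr-2* was lost when EtOH replicate 2 or 3 or antimycin A replicate 1 or 2 was left out, with adjusted p values of 0.0879, 0.0517, 0.0626 and 0.0631.

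*scav-3*, a CD36 family gene related to mammalian LIMP-2 and needed for lysosome membrane integrity (WBGene00013039, chromosome III, 12453588 to 12456850), read 38.96, 47.7 and 35.6 TPM with EtOH, against 87.9, 126 and 87.4 TPM with antimycin A. Its pairs differed by 1.15, 1.39 and 1.27, and it rose by 1.27 ± 0.24 (adjusted p = 0.00373). The calls of *scav-3* and *ncr-1* held without any single library, with highest adjusted p values of 0.0294 and 0.0495. Relative to *vha-20*, the *scav-3* level was 0.245, 0.332 and 0.313 in EtOH and 1.19, 1.80 and 2.30 in antimycin A. Both genes were called, in opposite directions, so this ratio had to differ and is not a separate result.

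The LAMP genes, which encode abundant glycoproteins of the lysosome membrane, went apart. *lmp-1* read 158, 106 and 112 TPM with EtOH, against 234, 256 and 132 TPM with antimycin A, higher in every pair with overlapping groups (0.69 ± 0.28, adjusted p = 0.126, blocked 0.00125). With median-of-ratios scaling as well, the blocked adjusted p of *lmp-1* was 0.0672. *lmp-2* (WBGene00015471, chromosome X, 1125170 to 1128288) fell from 13.97, 17.4 and 16.2 TPM to 5.89, 7.88 and 4.88 TPM (-1.24 ± 0.30, adjusted p = 0.0158). The ratio of *lmp-1* to *lmp-2* was 6.07 to 11.3 in EtOH and 27.1 to 39.6 in antimycin A. This ratio follows from the opposite changes of the 2 genes and is not a separate result. Without EtOH replicate 2 or 3 the adjusted p of *lmp-2* was 0.0974 and 0.0691.

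*cln-3.2*, a homologue of the human Batten disease gene CLN3, read 4.13, 4.39 and 2.26 TPM with EtOH, against 9.94, 13.2 and 5.81 TPM with antimycin A. The groups did not overlap and the test missed the threshold (1.19 ± 0.39, adjusted p = 0.0571, blocked 8.26e-05). *glo-1*, a Rab GTPase gene for the formation of gut granules, the lysosome-related organelles of the intestine, read 15.8, 12.5 and 12.9 TPM with EtOH, against 8.89, 7.08 and 9.44 TPM with antimycin A (-0.64 ± 0.29, adjusted p = 0.166, blocked 0.0116). Its groups did not overlap either. The summed intestine markers were lower in the same libraries, although *ges-1* rose, and a link to *glo-1* was not tested.

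*cup-5*, for the mucolipin channel of the lysosome, read 12.02, 6.85 and 5.95 TPM with EtOH, against 13.5, 13.7 and 9.25 TPM with antimycin A (0.54 ± 0.35, adjusted p = 0.356, blocked 0.0419). With median-of-ratios scaling as well, the blocked adjusted p of *cup-5* was 0.246. Its locus shares 1423 bases with *R13A5.15* on the opposite strand, named after its values were seen, which had means of 2.99 and 27.9 TPM. Without a stated strand setting, reads of such a pair cannot be told apart. *laat-1*, for the exporter of lysine and arginine from lysosomes, read 19.6 TPM ± 8.24 and 16.2 TPM ± 6.39 (-0.26 ± 0.40, adjusted p = 0.757).

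Other lysosomal genes were counted beside the 14.2% of all tested genes that rose and the 6.47% that fell, and with the block beside 29.6% higher and 13% lower. Of 11 tested transporter and channel genes outside the 30, 3 fell, 0 rose and 8 were not called, and with the block 4 were lower and 4 higher. Those 4 higher genes, named after their values were seen, were *cdf-2*, *clh-6*, *hrg-1* and *ctns-1*, with blocked adjusted p values from 0.00799 to 0.0388. The 3 that fell each reached 1 TPM in fewer than 3 antimycin A libraries and passed the filter through EtOH. *spin-3*, of the Spinster family of lysosomal efflux carriers, went from 4.44 TPM ± 0.664 to 0.581 TPM ± 0.483 (-1.82 ± 0.32, adjusted p = 0.0028). Its relative *spin-1* read 16.7 TPM ± 4.46 and 7.66 TPM ± 2.24 (adjusted p = 0.057, blocked 2.21e-04). Both of the other CLN3 homologues fell. The *cln-3.1* level went from 7.22 TPM ± 1.37 to 1.91 TPM ± 1.24 (-1.58 ± 0.39, adjusted p = 0.0171), that of *cln-3.3* from 3.29 TPM ± 1.21 to 0.781 TPM ± 0.327 (-1.25 ± 0.32, adjusted p = 0.0185). *cln-3.2* read higher, without a call. Both homologues entered the test through the EtOH libraries, and their difference from *cln-3.2* was not tested.

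Of 17 tested genes for lysosome fusion, transport and gut granule formation, 2 rose, 0 fell and 15 were not called, a share near the background, and with the block 4 were higher and 0 lower. *rab-7*, the late endosome Rab GTPase gene, rose from 91.3 TPM ± 29.8 to 199 TPM ± 31.98 (1.15 ± 0.25, adjusted p = 0.00959) and *glo-3*, another gut granule gene, from 0.634 TPM ± 0.0508 to 3.27 TPM ± 1.45 (adjusted p = 0.018). *glo-3* reached 1 TPM in 0 EtOH libraries and passed the filter through the antimycin A libraries alone. *glo-4*, for the predicted exchange factor of GLO-1, read 1.85 TPM ± 0.501 and 4.24 TPM ± 1.06 (adjusted p = 0.0867, blocked 0.00419). *arl-8*, for a GTPase of lysosome movement, read 66.9 TPM ± 28.2 and 107 TPM ± 36.5 (adjusted p = 0.226, blocked 9.68e-04).

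Limma called 0 of 8 genes for rabconnectin, which acts in V-ATPase assembly, and for the Ragulator and Rag proteins, which link the lysosome surface to TOR, with 0 at an unadjusted p under 0.05. All 8 had a positive fold change, beside 65.2% of all tested genes, and 4 were higher with the block, beside 29.6%. Those 4 were *raga-1*, *lmtr-2*, *lmtr-3* and *ragc-1*, with fold changes of 0.72, 0.43, 0.48 and 0.44.

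Of 23 tested hydrolase genes, 6 rose, 8 fell and 9 were not called, beside 14.2% of all tested genes that rose and 6.47% that fell. Of those calls 4 were of genes that reached 1 TPM in fewer than 3 libraries of the lower group, *gba-2*, *lipl-3*, *asm-2* and *asm-3*, the last 3 named after their values were seen. The glucocerebrosidase homologue *gba-2* rose from 0.880 TPM ± 0.258 to 72.5 TPM ± 23.9 (5.24 ± 0.34, adjusted p = 6.35e-06) and reached 1 TPM in 1 EtOH library. *gba-1* rose from 5.31 TPM ± 0.238 to 44.1 TPM ± 10.9. The lysosomal DNase II gene *nuc-1* fell from 154 TPM ± 11.2 to 31.9 TPM ± 9.61, and the cathepsin B family gene *cpr-6* from 2963 TPM ± 225 to 1014 TPM ± 201. Hydrolase genes moved in both directions, and 1 of the V-ATPase genes was positive in every pair.

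**Figure D4:**
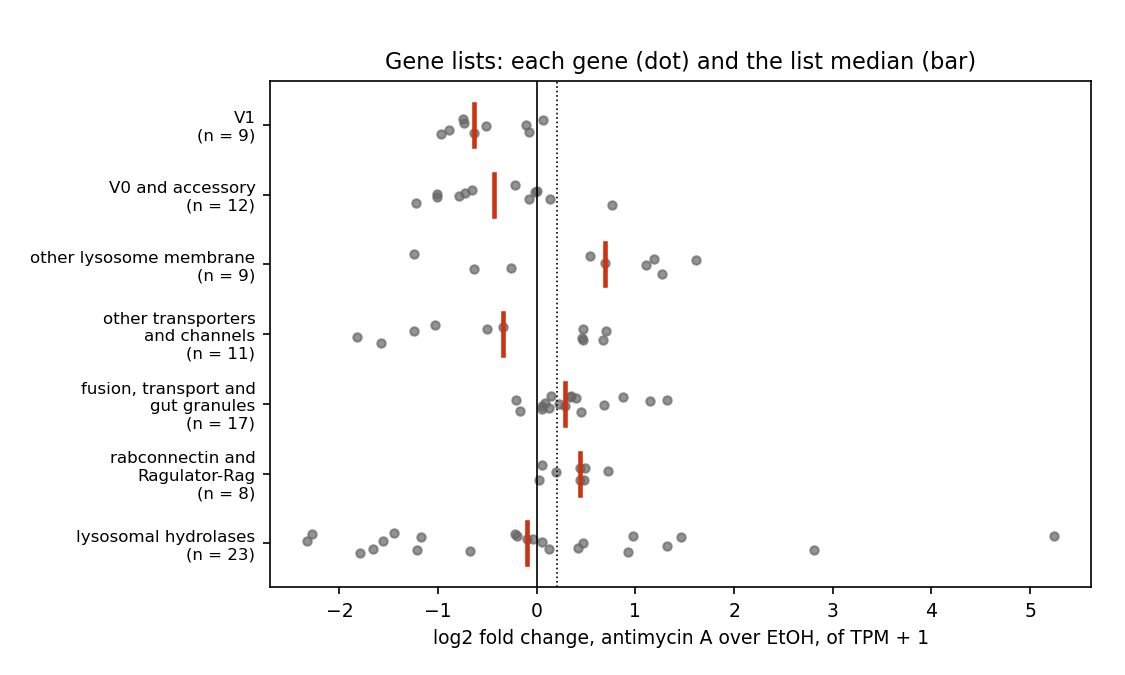
Log2 fold change of each tested gene (dots) and the list median (red bars) for the 3 groups of the 30 genes and for 4 further lysosomal lists, with the median of all tested genes as a dotted line. The medians of V1, -0.63, and V0, -0.44, lie below that line and the median of the other lysosome membrane genes, 0.69, above it.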

How the data were processed

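RNA bound to tagged ribosomes was sequenced in 6 libraries. The submitters' processing notes name bcl2fastq 2.20, Trimmomatic 0.36, HISAT2 (no version), StringTie 2.1.4, DESeq2 1.28.1 and the build WBcel235. How DESeq2 was set up, and whether counting used strand, is not given in the sources used here. The authors deposited TPM per library and gene, a log2 ratio of the groups and a q-value; DESeq2 was not run here. Genes listed at 0.0001 TPM, without signal, were set to 0.

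The test was limma 3.58.1, run in R 4.3.3 with its trend option on log2(TPM + 1), which has a pseudocount of 1 and compresses the fold changes of low genes. Only treatment was a term, genes needed 1 TPM in 3 libraries, and p values were adjusted by Benjamini-Hochberg over all 11099. The code was tested on simulated data. Alternatives were other scalings, pseudocounts, filters, sample quality weights (fitted gene by gene, since the default fit did not converge), the replicate block and left-out libraries. The design text calls the experiments independent, each with both treatments. Same-numbered libraries deviated together, with correlations of 0.68, 0.31 and 0.59 for numbers 1, 2 and 3, so the numbers pair the libraries. Since the blocked fit has few residual degrees of freedom, it borrows much of its variance from other genes.

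The members, gene lists and markers were chosen with earlier results of these data known. Named genes are the 30 members, the 4 smallest p values of each further list and *tbh-1*; any other gene was named after its values were seen. *ostm-1* was not analysed here. Other software was Python 3.11.15, pandas 2.3.3, numpy 2.4.6, scipy 1.17.1 and matplotlib 3.10.9.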

Additional observations from a re-analysis of the deposited data

How the results depend on the processing

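Of the 5 genes called among the 30, all kept their direction under every alternative in which they were tested. *ncr-2* was not tested with a mean of 5 TPM or without replicate 3 in both groups, where it was below the filter. With the replicate block 12 V-ATPase genes were lower and 1 higher, 6 other lysosome membrane genes higher and 2 lower, and 3282 of all tested genes higher and 1442 lower. Median-of-ratios scaling gave 12 V-ATPase and 2 other genes lower, 1194 lower of all tested, a V-ATPase median of -0.92, and log2 ratios of summed V1 and V0 TPM of -0.80 and -0.80 against -0.51 and -0.49. Quantile normalization gave 10 V-ATPase and 2 other genes lower, 1398 lower of all tested and a V-ATPase median of -0.45. Median-of-ratios scaling moved the median of all tested genes from 0.21 to -0.03. With the block as well, added after seeing the data, 14 V-ATPase genes were lower and 1 higher, with a V-ATPase median of -0.92. Of the others 4 were higher and 3 lower, beside 2283 higher and 2279 lower of all tested. In that fit *lmp-1* and *cup-5* were not called (adjusted p = 0.0672 and 0.246), and *laat-1* was lower (0.015). Quality weights gave 8 V-ATPase genes lower and 1 higher, 6 others higher and 2 lower, 4094 higher and 1219 lower of all tested, and medians of -0.41 and 1.10. Rescaling without ribosomal RNA and *perm* genes gave 2 V-ATPase genes lower and 5 others higher. Of all 11626 genes tested then, 741 were lower and 2155 higher. A mean of 5 TPM gave 2 of 19 V-ATPase genes lower, beside 645 of 7338 tested genes. No filter gave 0 V-ATPase genes lower, beside 613 of 18645 tested genes.

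Leaving out 1 library gave 0 to 6 V-ATPase genes lower, 2 to 5 others higher and 0 to 1 lower, and 768 to 2059 genes higher and 410 to 705 lower of all tested. The V-ATPase count was 6 without antimycin A replicate 1, 2 without EtOH replicate 3 and 0 without EtOH replicate 2. The V-ATPase median ranged from -0.82 to -0.40 and the log2 ratio of summed V1 TPM from -0.72 to -0.27. Without replicates 1, 2 or 3 in both groups, 5, 0 and 2 V-ATPase genes were lower, beside 674, 162 and 372 of all tested. Without replicate 2 in both groups 0 others were higher and 0 lower, with 391 higher and 162 lower of all tested. Without replicate 3 in both groups 0 others were lower, with 964 higher and 372 lower of all tested.

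Fold changes near 0 changed sign, and the cause was not tested. Under quality weights *vha-1* was at 0.116, *vha-5* at 0.0937, *vha-9* at 0.0774, *vha-14* at 0.131, *vha-17* at 0.306 and *laat-1* at 0.0519. After median-of-ratios scaling, with or without the block, *vha-7* was at -0.0264, *vha-18* at -0.174 and *vha-19* at -0.278. After quantile normalization *vha-7* was at -0.125, *vha-9* at 0.0556, *vha-17* at 0.0458, *vha-18* at -0.25 and *vha-19* at -0.291. Rescaling put *vha-9* at 0.0235 and *vha-17* at 0.0827. With 1 library left out the range was -0.387 to 0.0259 for *vha-1*, -0.372 to 0.257 for *vha-5*, -0.0723 to 0.535 for *vha-7*, -0.216 to 0.0449 for *vha-9*, -0.303 to 0.149 for *vha-14*, -0.178 to 0.279 for *vha-17*, -0.175 to 0.501 for *vha-18*, -0.434 to 0.60 for *vha-19* and -0.542 to 0.0897 for *laat-1*. Without replicate 2 in both groups *vha-7* was at -0.0716, *vha-18* at -0.273 and *vha-19* at -0.317, and *vha-17* was at 0.0199 and 0.148 without replicates 1 and 3. TPM hold no read counts, so the counting error of low genes such as *ncr-2* is unknown.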
